A study of Mus musculus with 206 samples.

Results

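The genes described here are 10 mouse stress-response genes: 7 heat shock protein genes (Hspa1a, Hspa1b, Hspb1, Hsp90ab1, Hspa8, Hspa5 and Dnajb1) and 3 metallothionein genes (Mt1, Mt2 and Mt3), out of 21951 protein-coding genes in the annotation. They were read in 2 ways. A region of the authors' 4 consensus lists belonged to a gene where its nearest protein-coding transcription start site (TSS) within 100 kb was that of the gene, which gave 59 of 108274 regions. A peak of a single library was counted as a TSS peak where it came within 1 kb of a start site of the gene.

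The measurement was H3K27ac, an acetyl mark of active promoters and enhancers, profiled by a microfluidic ChIP-seq method (MOWChIP-seq) in about 10000 sorted NeuN+ nuclei per library. NeuN is a protein of neuronal nuclei, and the nuclei came from wild-type C57BL/6NTac mice. MOR animals came from dams given morphine at 10 mg/kg/day by minipump and received 10 mg/kg morphine themselves from postnatal day 1 to 14, and SAL animals received saline at both stages. Pups of all groups were raised by drug-naive surrogate dams. As adults they were given lipopolysaccharide (LPS), a bacterial endotoxin, or saline, and brain tissue was taken 2 h later, which gave the groups MOR-LPS, MOR-SAL, SAL-LPS and SAL-SAL in both sexes. In that order, 14, 9, 11 and 8 libraries of prefrontal cortex (PFC) were compared, 10, 11, 12 and 11 of hippocampus, 10, 12, 11 and 8 of hypothalamus, and 15, 7, 13 and 10 of striatum, 172 libraries of 72 animals in all. The punched tissue is a mix of neuron types, so fewer nuclei with a mark and less mark per nucleus cannot be told apart.

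Heat shock proteins are chaperones that hold, fold or clear other proteins. Some, such as Hspa8 and Hsp90ab1, are made at all times, and others, such as Hspa1a, Hspa1b and Hspb1, are induced when the heat shock factor HSF1 binds heat shock elements at their promoters. Metallothioneins are small cysteine-rich proteins that bind zinc and copper. Mt1 and Mt2 are switched on by metals, glucocorticoids and inflammation, partly through the factor MTF1 at metal response elements, while Mt3 is the form enriched in brain.

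The libraries held 10811 to 143527 peaks with a median of 62637, and the share of 10 neuron markers with a strong TSS peak (among the 10000 peaks of highest −log10 p) had a median of 70% in PFC, 55% in hippocampus, 60% in hypothalamus and 40% in striatum. Markers of microglia reached at most 10% and those of astrocytes at most 30% in any library. The astrocyte markers Aqp4, Gfap, Aldh1l1, Gjb6 and Sox9 had no strong peak in any library, but the remaining astrocyte markers did. Slc1a2 had one most often, reaching 63.6% of libraries for hippocampus and ranging elsewhere from 13.3% (striatum) to 34.15% (hypothalamus). Slc1a3, S100b, Gja1 and Fgfr3 stayed at or below 9.52% of libraries within each brain region. Oligodendrocyte markers had a median of 0% in PFC, hippocampus and hypothalamus and 10% in striatum but reached 100% in single libraries, although the nuclei were sorted for NeuN. The brain region labels did not all match their markers. The 8 striatum markers had a median share of 50% in PFC libraries, above the 12.5% of cortex markers there and the 25% of striatum markers in striatum libraries, and hypothalamus markers had a median of 0% in hypothalamus libraries. The library kit was xGen 2S for PFC and ThruPLEX for every other brain region, so kit and brain region cannot be told apart in any value set between PFC and another brain region.

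The promoters of the members are shown first, because the TSS peaks described below fall on or beside them. Each window of 300 bases is RefSeq sequence of GRCm38.p6, written along the strand of the gene, and positions are bases from the RefSeq start site, negative upstream. Capitals mark heat shock elements, searched as TTCNNGAA or GAANNTTC, in the first 3 promoters. Hspa1a (chr17:34972107-34972406, minus strand), Hspa1b (chr17:34959189-34959488, minus strand) and Hspb1 (chr5:135887669-135887968, plus strand) read as follows.
Hspa1a: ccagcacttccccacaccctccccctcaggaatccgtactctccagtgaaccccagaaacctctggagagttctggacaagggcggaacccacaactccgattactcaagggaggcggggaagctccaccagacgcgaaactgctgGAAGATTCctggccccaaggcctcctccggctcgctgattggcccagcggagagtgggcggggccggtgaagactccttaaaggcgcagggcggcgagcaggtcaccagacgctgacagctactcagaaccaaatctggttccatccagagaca
Hspa1b: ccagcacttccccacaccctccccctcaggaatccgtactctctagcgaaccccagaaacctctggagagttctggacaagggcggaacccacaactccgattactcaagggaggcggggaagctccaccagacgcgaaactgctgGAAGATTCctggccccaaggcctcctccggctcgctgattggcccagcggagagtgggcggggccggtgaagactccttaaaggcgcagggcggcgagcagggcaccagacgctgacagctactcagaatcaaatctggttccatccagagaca
Hspb1: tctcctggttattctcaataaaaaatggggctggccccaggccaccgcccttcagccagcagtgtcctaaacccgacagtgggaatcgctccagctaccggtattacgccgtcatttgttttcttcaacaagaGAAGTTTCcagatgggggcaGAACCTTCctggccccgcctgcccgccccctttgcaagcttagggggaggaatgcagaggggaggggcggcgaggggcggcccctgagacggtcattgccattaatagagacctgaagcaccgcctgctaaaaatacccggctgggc

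Hspa1a and Hspa1b each held 1 heat shock element, at −104, and Hspb1 held 2, at −117 and −97. On both strands, 15.06% of 32851 RefSeq promoters of this length held at least 1 such element, and 644 promoters held at least 2. The Hspa1a and Hspa1b windows were alike at 296 of 300 bases. The differences, counted from 1 at the 5′ end of the window with the Hspa1a base first, were C44T, T47C, T249G and C276T, and the heat shock element was the same in both. A Hspa8 and a Hsp90ab1 promoter were not used here. The Dnajb1 window at its first RefSeq start site held no match to the letters of the heat shock element.

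Capitals mark the endoplasmic reticulum (ER) stress element, a CCAAT and a CCACG at a fixed spacing, in Hspa5 (chr2:34771840-34772139, plus strand), and metal response element cores, searched as TGCGCNC or TGCACNC on both strands, in Mt1 (chr8:94178839-94179138), Mt2 (chr8:94172368-94172667) and Mt3 (chr8:94152357-94152656), all on the plus strand.
Hspa5: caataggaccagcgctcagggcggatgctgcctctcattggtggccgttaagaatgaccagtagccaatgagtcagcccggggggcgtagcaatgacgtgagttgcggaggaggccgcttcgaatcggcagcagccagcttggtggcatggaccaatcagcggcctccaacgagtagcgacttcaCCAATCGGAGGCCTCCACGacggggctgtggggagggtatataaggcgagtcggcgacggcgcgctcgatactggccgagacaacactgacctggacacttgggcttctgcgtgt
Mt1: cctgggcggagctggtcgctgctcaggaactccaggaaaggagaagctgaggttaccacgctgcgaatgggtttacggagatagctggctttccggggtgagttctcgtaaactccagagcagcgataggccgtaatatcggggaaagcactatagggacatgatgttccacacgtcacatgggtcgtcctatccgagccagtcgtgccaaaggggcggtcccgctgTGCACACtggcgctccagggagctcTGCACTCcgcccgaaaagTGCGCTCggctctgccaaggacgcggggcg
Mt2: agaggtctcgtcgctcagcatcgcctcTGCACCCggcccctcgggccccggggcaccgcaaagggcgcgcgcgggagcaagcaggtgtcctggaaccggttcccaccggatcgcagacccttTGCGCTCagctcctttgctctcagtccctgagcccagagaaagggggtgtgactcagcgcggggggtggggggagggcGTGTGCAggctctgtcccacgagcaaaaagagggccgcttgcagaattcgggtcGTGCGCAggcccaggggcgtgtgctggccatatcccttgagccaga
Mt3: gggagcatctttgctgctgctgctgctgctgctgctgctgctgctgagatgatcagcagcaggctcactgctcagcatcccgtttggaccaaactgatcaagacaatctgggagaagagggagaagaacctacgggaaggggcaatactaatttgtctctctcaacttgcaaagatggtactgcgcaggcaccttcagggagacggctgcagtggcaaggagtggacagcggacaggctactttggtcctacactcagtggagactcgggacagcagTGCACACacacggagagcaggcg

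The ER stress element of Hspa5 began at −65, counted from a RefSeq start site 120 bp downstream of the GENCODE one, and 39 of the 32851 promoters held one. It overlaps 1 of the 4 CCAAT boxes of that window. Mt1 held 3 metal response element cores, Mt2 held 4 and Mt3 held 1. At least 1 such core was found in 25.7% of all promoters, at least 3 in 1.97% and at least 4 in 0.518%. The single Mt3 core lay at position 27. GC content was 56% in the Mt3 window and between 58.3% and 70.7% in the other windows read, against a median of 52.7% over all promoters. Mt3 also had the fewest CpG dinucleotides of these windows, 8, near the median of 7.

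The members fell into 3 classes by how often their start sites carried a peak. Hspa8, the constitutive HSP70 chaperone that also uncoats clathrin vesicles at synapses, had a TSS peak in all but 1 of the 42 PFC libraries, in 41 of the 44 from hippocampus, in 39 of the 41 from hypothalamus and in all 45 from striatum. Hsp90ab1, the constitutive cytosolic HSP90, had one in 41, 41, 36 and 44, and Mt3 in 41, 37, 40 and 43 libraries of the same brain regions. For these 3 genes the peak was among the 10000 strongest of its library in 149, 148 and 109 of the 172 libraries.

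A middle class had peaks that were common but seldom strong. Dnajb1, the J-domain partner that stimulates HSP70, had a TSS peak in 41 PFC, 27 hippocampus, 32 hypothalamus and 39 striatum libraries. Hspa5, the ER chaperone BiP, had one in 41, 33, 28 and 31, and Mt1 in 41, 36, 25 and 36. Only 55 (Dnajb1), 53 (Hspa5) and 57 (Mt1) of the 172 libraries had that peak among their 10000 strongest. Mt2 was intermediate, with a peak in 90 of 172 libraries (21, 28, 17 and 24 by brain region) and a strong one in 13. The 1 PFC library without a peak at any of Hsp90ab1, Hspa8, Hspa5, Dnajb1, Mt1 and Mt3 was MOR-SAL male 13-1, whose list of 11306 peaks was the shortest in PFC.

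Hspa1a, Hspa1b and Hspb1 had few peaks. Hspa1b, which encodes an inducible HSP70, had one in 25 of 172 libraries, its near-identical neighbour Hspa1a in 11, and Hspb1, which encodes the small heat shock protein HSP27, in 5. Of these only 5 Hspa1b peaks were among the 10000 strongest of a library. A start site of Hspa1l, another HSP70 gene, lies 547 bp from that of Hspa1a, so a TSS peak of Hspa1a may also be one of Hspa1l. Median fold enrichment over the local background was 4.92 at Hspa1b, 4.93 at Hspa1a and 4.43 at Hspb1, against 9.44 at Hsp90ab1 and 8.40 at Hspa8. Libraries with a Hspa1b peak had longer lists, with a median of 83884 peaks, than those without one, with 60414.

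**Figure D1:**
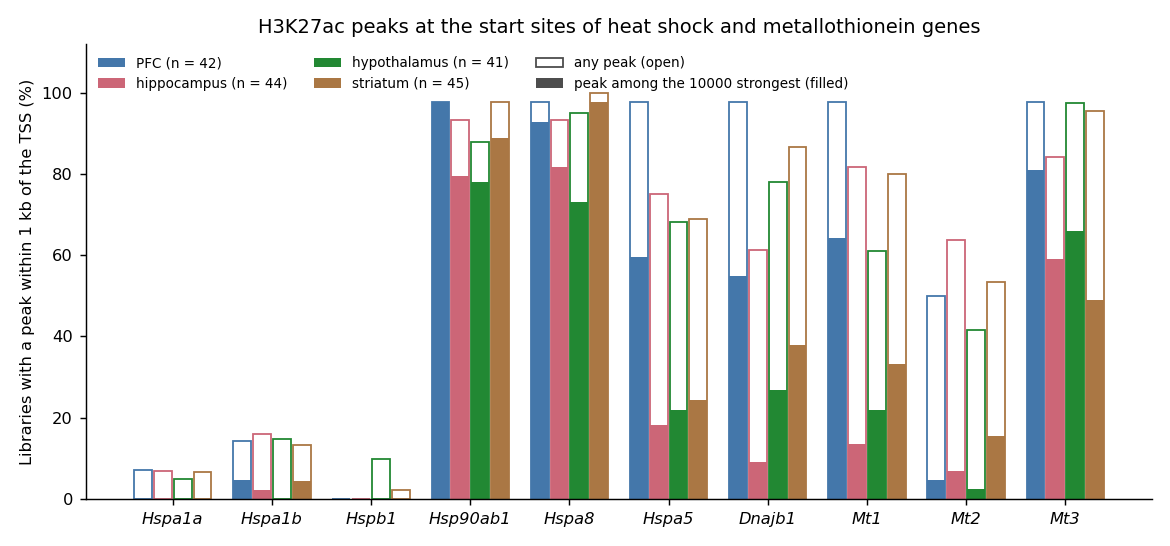
Share of libraries (%) with an H3K27ac peak within 1 kb of the TSS of each gene, by brain region. Open bars count any peak and filled bars a peak among the 10000 strongest of its library. Hsp90ab1, Hspa8 and Mt3 have tall, mostly filled bars, Hspa5, Dnajb1 and Mt1 are tall in PFC and mostly open elsewhere, and Hspa1a, Hspa1b and Hspb1 stay under 20%.

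Peaks are called from aligned reads, and repeated sequence bears on how they can be placed. Of all 31-base words within 1 kb of the TSS, 54.6% at Hspa1a and 54.3% at Hspa1b occurred more than once in the genome. Downstream of the start site, where the transcribed part of each gene lies, 91.6% and 91.0% of the words were repeated, against 19.4% upstream in both genes. Over both sides the share was 33.4% at Hspb1, 8.42% at Hspa8 and at most 1.32% at each of the other 6 genes. How the authors treated reads that fit several places is not given in the sources used here. Reads of the repeated words at Hspa1a and Hspa1b, most of them downstream of the start site, are therefore uncertain as to which copy they came from. The part of this in the low peak counts of both genes was not tested.

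The position of the summit differed between members. With upstream distances negative, the median summit was at −1269 bp from the TSS for Hsp90ab1, −764 bp for Hspa8 and −398 bp for Hspa5. A summit can lie beyond 1 kb because only the edge of the peak had to come within it. Dnajb1, Mt1, Mt2 and Mt3 had median summits at 285, 234, 251 and 257 bp downstream. Their quartiles lay on both sides of the start site, with lower quartiles from −408 bp (Mt2) to −133 bp (Mt3). Of the 25 Hspa1b summits, 19 lay 200 to 700 bp upstream, farther from the start site than the heat shock element printed above, and the median over all 25 was −371 bp.

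**Figure D2:**
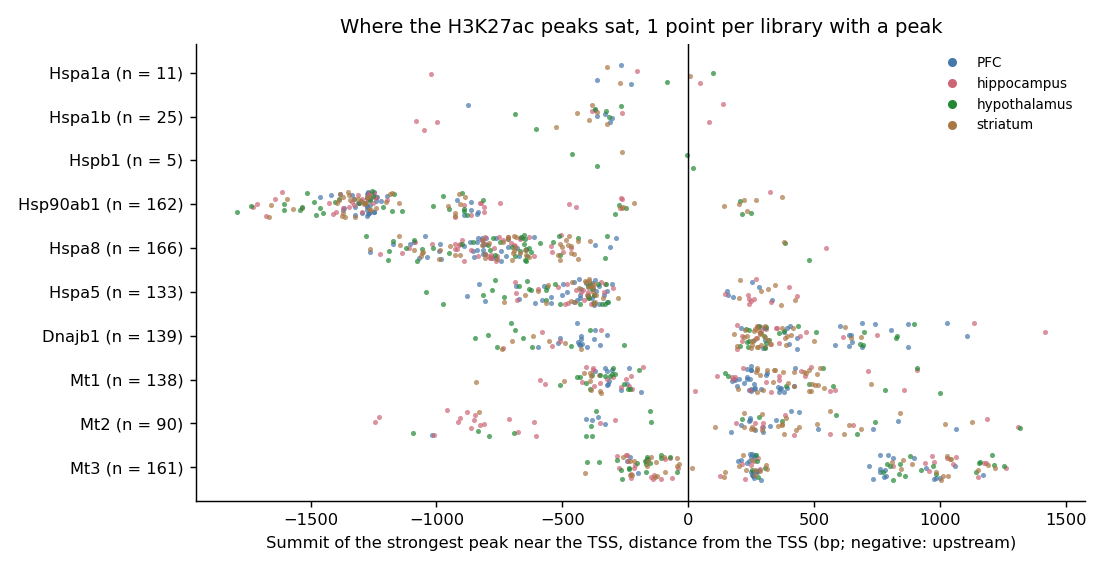
Distance in bp from the TSS to the summit of the strongest TSS peak, 1 point per library with a peak, coloured by brain region; negative values are upstream. Hsp90ab1 summits have their median at −1269 bp and Hspa8 summits at −764 bp, while Dnajb1, Mt1, Mt2 and Mt3 have points on both sides of the start site.

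The consensus lists held the members unevenly. Hspa8 had 23 regions over the 4 brain regions, most of them away from its promoter and several inside its upstream neighbour Clmp. Hspb1 had 8, none of them a promoter region, and Mt3 had 6. Mt1 had 5 regions, and Hspa1b, Hsp90ab1 and Dnajb1 had 4 each. Mt2 had 3, Hspa5 had 2 and Hspa1a had none. Promoter regions (within 1 kb of a TSS) of Hsp90ab1, Hspa8 and Mt3 were in all 4 lists, those of Hspa5 and Dnajb1 only in the PFC and striatum lists, and those of Mt1 and Mt2 only in the hippocampus and striatum lists. A gene is absent from a list where the authors' consensus rule kept no region, so these lists say nothing on whether the levels differ.

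Some member regions lie in or near other genes, and nearness does not show which gene a region serves. The Hspb1 regions shared by all 4 lists begin 14108 bp or more downstream of the nearer of its 2 annotated start sites, and in hippocampus, hypothalamus and striatum 1 of them overlaps Ywhag. The single Hspa1b region of each list has its middle 7197 to 7399 bp downstream of the Hspa1b TSS. A second Mt1 region has its middle 9339, 9493 and 9015 bp downstream of Mt1 in hippocampus, hypothalamus and striatum. The share of member regions that were promoter regions was 50% in PFC, 55.6% in hippocampus, 30% in hypothalamus and 32.1% in striatum, against 31.4%, 25.1%, 33.4% and 20.3% over all regions of those lists.

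To compare libraries whose lists differ in length, a gene was scored by the highest −log10 p among its TSS peaks (0 where it had none), and the scores of a library were turned into percentile ranks from 0 to 100. All genes without a peak in a library share 1 low rank. Groups were compared by limma, called at an adjusted p (Benjamini-Hochberg over all genes tested) under 0.05. Genes with a peak in fewer than 20% of the libraries were left out, which kept 7 of the 10 members and dropped Hspa1a, Hspa1b and Hspb1.

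Hspa8 and Hsp90ab1 ranked near the top of the genome in every brain region. The Hspa8 rank ran from 47.6 (lowest) over 97.5 (median) to 99.98 (highest) in PFC, 37.8 over 97.8 to 100 in hippocampus, 36.9 over 95.5 to 99.98 in hypothalamus and 92.3 over 98.6 to 99.97 in striatum. Its mean was 91.5 ± 12.7 in hypothalamus (SD, n = 41) and 98.1 ± 1.79 in striatum (SD, n = 45), the only called Hspa8 pair (difference −6.30 ± 2.31 rank units, SE, adjusted p = 0.0389 by limma). Hsp90ab1 had a median rank of 98.1 in PFC, 99.3 in hippocampus, 96.4 in hypothalamus and 98.9 in striatum. It was called only as higher in PFC than in hypothalamus, by 6.76 ± 2.67 (adjusted p = 0.0277), where the median gene was higher by 3.82. The lowest hypothalamus libraries stood at 36.9 (Hspa8) and 38.4 (Hsp90ab1), and the brain regions overlapped in both genes.

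Hspa5 had its highest mean in PFC. Its rank ran from 47.6 over 88.2 to 97.4 in PFC, 30.5 over 77.9 to 99.4 in hippocampus, 29.9 over 74.4 to 98.6 in hypothalamus and 30.4 over 78.9 to 95.6 in striatum. PFC exceeded hippocampus by 12.6 ± 4.24 (adjusted p = 0.0101), hypothalamus by 17.0 ± 4.31 (adjusted p = 0.000488) and striatum by 16.6 ± 4.21 (adjusted p = 0.00105). The 3 other brain regions did not differ from each other beyond their spread, with differences from −0.398 (hypothalamus minus striatum) to 4.35 (hippocampus minus hypothalamus, 95% interval −4.01 to 12.7). In each PFC pair the rank of the median gene was itself 3.82 to 4.31 higher in PFC, so 8.33, 13.2 and 12.6 of the Hspa5 differences lay beyond that shift. The difference from striatum had this direction in 3 of 4 treatment groups, the exception being MOR-SAL (mean 77.4 in PFC and 81.2 in striatum).

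Dnajb1 was lowest in hippocampus. Its rank ran from 47.6 over 83.7 to 98.9 in PFC, 29.9 over 67.6 to 95.9 in hippocampus, 29.5 over 80.9 to 99.2 in hypothalamus and 33.8 over 85.7 to 99.0 in striatum. PFC exceeded hippocampus by 21.01 ± 4.06 (adjusted p = 5.44e-06). Hippocampus was lower than striatum (difference −18.4 ± 4.00, adjusted p = 0.000103) and lower than hypothalamus (difference −10.8 ± 4.07, adjusted p = 0.0347). PFC also exceeded hypothalamus by 10.2 ± 4.12 (adjusted p = 0.032). PFC and striatum differed by 2.64, with a 95% interval from −5.25 to 10.5. The lower hippocampus mean was seen against each of the other 3 brain regions in all 4 treatment groups.

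The metallothioneins did not share an order of brain regions. Mt1 ran from 47.6 over 89.7 to 99.99 in PFC, 36.1 over 81.2 to 99.3 in hippocampus, 29.5 over 76.2 to 99.7 in hypothalamus and 35.1 over 82.7 to 99.9 in striatum. It was higher in PFC than in hypothalamus by 20.3 ± 4.11 (adjusted p = 1.04e-05) and than in hippocampus by 10.4 ± 4.04 (adjusted p = 0.0272), and lower in hypothalamus than in striatum (difference −11.0 ± 4.06, adjusted p = 0.0408). Mt2 went the other way between PFC and hippocampus. Its rank ran from 24.5 over 48.9 to 85.4 in PFC, 24.2 over 61.7 to 96.7 in hippocampus, 27.1 over 40.4 to 89.9 in hypothalamus and 30.4 over 60.9 to 98.6 in striatum. PFC was lower than hippocampus (difference −12.5 ± 4.28, adjusted p = 0.0115) although the median gene was 4.31 higher in PFC. This held in 3 of 4 treatment groups, the exception being SAL-SAL (mean 53.1 in PFC and 51.3 in hippocampus). Mt3 had medians of 91.4, 93.6, 90.9 and 90.6 in PFC, hippocampus, hypothalamus and striatum and no call in any of the 6 pairs, with intervals that all lay between −9.36 and 10.3.

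**Figure D3:**
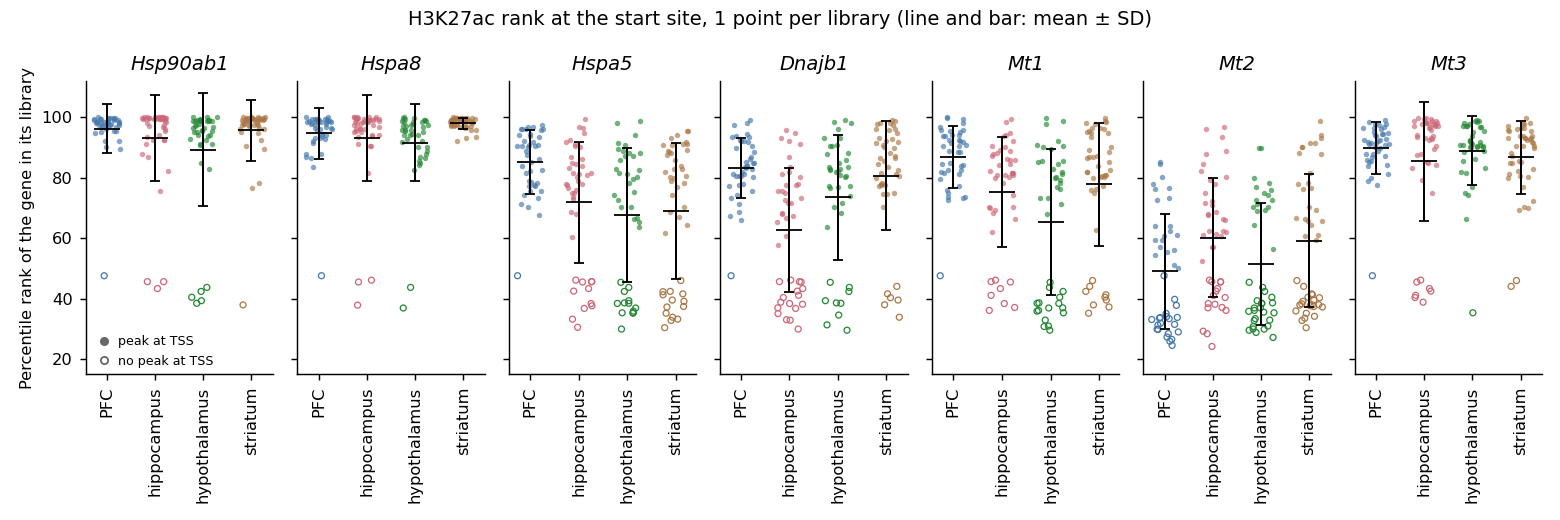
Percentile rank (0 to 100) of the 7 tested genes within each library, by brain region, with mean ± SD in black; open points are libraries without a peak at the gene, which share a tied low rank. Hspa8 in striatum sits between 92.3 and 99.97 in all 45 libraries, Dnajb1 has its lowest mean in hippocampus (62.6 ± 20.5), and Mt2 is split between open and filled points in every brain region.

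In counts, 4 of 7 members were called in PFC minus hippocampus (3 higher in PFC) where 43.4% of all tested genes were called, and 4 of 7 in PFC minus hypothalamus (all higher in PFC) against 47.8%. PFC minus striatum gave 1 of 7 against 31.1%. Hippocampus minus hypothalamus gave 1 of 7 against 26.5%, hippocampus minus striatum 1 of 7 against 21.4%, and hypothalamus minus striatum 2 of 7 against 19.0%. With 7 genes, nothing was read from these shares about the members against other genes. Of the 13 calls, 5 were made under every alternative tried for them: Dnajb1 in PFC minus hippocampus and in hippocampus minus striatum, Mt2 in PFC minus hippocampus, and Hspa5 and Mt1 in PFC minus hypothalamus. With the neuron, astrocyte and oligodendrocyte marker shares as further terms, Hspa5 and Mt1 in PFC minus hippocampus, Hspa5 in PFC minus striatum, and Hsp90ab1 and Dnajb1 in PFC minus hypothalamus were no longer called. Hsp90ab1 in PFC minus hypothalamus was also lost with the list length term, normal scores and a window of 2500 bp, Dnajb1 in that pair with the list length term and normal scores, and Mt1 in PFC minus hippocampus with fold enrichment as the score. Dnajb1 in hippocampus minus hypothalamus was lost with lists of equal length. That call and Hspa8 in hypothalamus minus striatum were lost without the oligodendrocyte-rich libraries, the Hspa8 call also without the filter, with a stricter q and with 1 start site per gene record, and Mt1 in hypothalamus minus striatum was lost under 8 of 13 alternatives.

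The wider chaperone and metal network was read from 8 lists of 55 genes, 49 of them tested. In PFC minus hippocampus 20 genes were higher in PFC and 3 lower, where 30.7% of all genes were higher and 12.7% lower. The J-domain proteins and HSP70 co-factors had 8 of 10 tested genes higher in PFC in that pair, including St13, an HSP70-interacting co-chaperone (18.6 ± 4.02, adjusted p = 5.01e-05). Their median difference was 12.9, against 4.31 over all genes. The ER list had 5 of 11 higher in PFC and 1 lower, with the ER stress sensor Atf6 at 20.6 ± 4.17 (adjusted p = 1.51e-05) and the lectin chaperone Canx at 15.3 ± 3.94 (adjusted p = 0.000692). HSP90 co-chaperones had 4 of 7 higher in PFC, led by Ahsa1, an activator of the HSP90 ATPase (22.5 ± 4.10, adjusted p = 1.28e-06).

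The number of genes higher and lower in the first-named brain region was 20 and 2 in PFC minus hypothalamus, 15 and 1 in PFC minus striatum, 5 and 3 in hippocampus minus hypothalamus, 6 and 1 in hippocampus minus striatum, and 1 and 6 in hypothalamus minus striatum. Over all genes the shares called as higher and lower in those pairs were 32.3% and 15.5%, 24.9% and 6.21%, 13.2% and 13.3%, 12.3% and 9.19%, and 10.5% and 8.51%. In PFC minus hypothalamus the smallest adjusted p of the co-factor list were those of St13 (24.5 ± 4.08, adjusted p = 7.85e-08), the ubiquitin ligase Stub1 (23.4 ± 4.47, adjusted p = 3.04e-06) and Dnajc5, a J-domain protein of synaptic vesicles (20.1 ± 3.92, adjusted p = 5.05e-06). Of the heat shock factors, Hsf1 was higher in PFC than in striatum (14.4 ± 4.07, adjusted p = 0.00332) and Hsf2 higher in PFC than in hippocampus (13.9 ± 4.19, adjusted p = 0.00394). The gene of largest change in the metal list was Slc30a3, which loads zinc into synaptic vesicles. It was higher in hippocampus than in striatum by 31.8 ± 3.29 (adjusted p = 2.22e-17) and than in hypothalamus by 30.4 ± 3.34 (adjusted p = 1.34e-15). Slc30a1, a zinc exporter, was higher in hippocampus than in hypothalamus (17.2 ± 3.69, adjusted p = 6.54e-05), and Slc39a14, a metal importer, higher in hippocampus than in striatum (16.1 ± 3.25, adjusted p = 2.20e-05).

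The effect of morphine and LPS was tested in 5 comparisons per brain region: MOR-LPS minus SAL-LPS, MOR-SAL minus SAL-SAL, MOR-LPS minus MOR-SAL, SAL-LPS minus SAL-SAL, and the interaction of both treatments. At the start sites, limma called 0 of 140 tests of the 7 members, where 0.0581% of the tests over all genes were called. An unadjusted p under 0.05 was found in 23 of the 140 (16.4%), against 8.69% of the tests over all genes. Females and males gave 0 calls in 28 tests, with 0 at an unadjusted p under 0.05, where 0.0134% of all tests were called and 8.58% had such a p. Single differences were wide, as for Mt2 in striatum, where the 95% interval of MOR-LPS minus SAL-LPS ran from 3.66 to 36.2 without a call.

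The smallest adjusted p were those of Mt1 in striatum, followed by the striatum interaction of Hsp90ab1 and the hypothalamus interaction of Mt2. Mt1 in striatum ran from 42.4 over 95.1 to 99.9 in MOR-LPS libraries, against 35.1 over 74.99 to 98.6 in SAL-LPS libraries. The difference was 22.5 ± 7.53 with an adjusted p of 0.110, where the median gene differed by 4.33. It was called without the filter on rare peaks (adjusted p = 0.0328) and with normal scores (adjusted p = 0.0497). With the oligodendrocyte share as a further term, chosen after seeing the data, the difference was 14.9 (adjusted p = 0.891). Mt2 in hypothalamus ran from 32.9 over 69.1 to 89.7 in MOR-LPS, 27.1 over 36.4 to 72.8 in MOR-SAL, 29.5 over 36.1 to 70.4 in SAL-LPS and 36.9 over 73.7 to 89.9 in SAL-SAL. Its median was thus high in the groups with both or neither agent and low in the groups with 1 agent, and the interaction was 45.8 ± 13.5, with an adjusted p of 0.193.

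This shape largely restates how often Mt2 had a peak at all in hypothalamus, because a library without a peak takes the tied low rank. A Mt2 TSS peak was present in 7 of 10 MOR-LPS, 2 of 12 MOR-SAL, 2 of 11 SAL-LPS and 6 of 8 SAL-SAL hypothalamus libraries. In striatum it was present in 14 of 15 MOR-LPS, 2 of 7 MOR-SAL, 4 of 13 SAL-LPS and 4 of 10 SAL-SAL libraries. Oligodendrocyte markers moved with this: all 7 striatum libraries with a marker share of 40% or more had the Mt2 peak, against 17 of the other 38, and 5 of those 7 were MOR-LPS. The striatum differences in Mt2 rank did not pass, at 19.9 ± 8.30 for MOR-LPS minus SAL-LPS (adjusted p = 0.206) and 22.4 ± 9.75 for MOR-LPS minus MOR-SAL (adjusted p = 0.196). Without the libraries of 40% or more, MOR-LPS minus SAL-LPS was 19.7 ± 9.52 (adjusted p = 0.815). With the oligodendrocyte share as a further term it was 15.4 ± 8.96 (adjusted p = 0.902). Both alternatives were chosen after seeing the data, and the part of the marker share in the Mt2 peaks was not tested.

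Hspa5 also had wide differences that were not called. In hippocampus its median rank was 84.2 in MOR-LPS, 45.5 in MOR-SAL, 77.7 in SAL-LPS and 81.3 in SAL-SAL libraries, and MOR-SAL differed from SAL-SAL by −29.1 ± 9.14 (adjusted p = 0.61). In striatum, MOR-LPS libraries had a median of 70.2, against 41.3 in SAL-LPS libraries, a difference of 19.8 ± 8.66 (adjusted p = 0.233) that was called without the filter on rare peaks (adjusted p = 0.0392) and was 1.99 with lists of equal length. Hsp90ab1 in striatum had a lowest value of 96.0 among MOR-LPS libraries, against 37.9 among SAL-LPS libraries, with medians of 99.2 and 97.1. Its striatum interaction was 14.9 ± 5.42 (adjusted p = 0.176), which was called with normal scores (adjusted p = 0.031).

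In the consensus regions the same rank was taken per region. Of 295 treatment tests on the 59 member regions, limma called 3, where 0.551% of all such tests were called. An unadjusted p under 0.05 was found in 32 (10.8%), against 11.3% of the tests over all regions. Females and males gave 0 calls in 59 tests, with 10 at an unadjusted p under 0.05 (16.9%, against 15.1% over all regions), where 0.446% of all regions were called. The 3 calls were all in striatum, in MOR-LPS minus SAL-LPS, and all higher in MOR-LPS. They were 3 of 28 member regions in that comparison, where 2.32% of all striatum regions were called and 1.96% were called as higher in MOR-LPS. That background was itself unstable. Its 1395 called regions became 2 with lists of equal length, where each striatum list kept only its 10811 strongest peaks, the length of the shortest. They became 0 without any of MOR-LPS 15-3, 16-0, 16-2 and 7-1 or SAL-LPS 10-0, 10-2 and 4-4, and 3410 without MOR-LPS 12-2.

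The first was the Mt1 promoter region, chr8:94176741-94180468 in mm10, which covers the Mt1 gene and its start site. Its rank ran from 38.6 over 95.9 to 99.96 in the 15 MOR-LPS libraries, against 25.3 over 55.1 to 99.1 in the 13 SAL-LPS libraries. A peak was present in 14 of 15 MOR-LPS and 8 of 13 SAL-LPS libraries, and the groups overlapped. The difference was 30.04 ± 7.84 rank units (adjusted p = 0.0338), and with lists of equal length it was 35.1 and not called (adjusted p = 0.055). The medians in the saline-challenged groups lay between those values, at 79.5 in MOR-SAL and 79.9 in SAL-SAL, so SAL-LPS was the lowest group.

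The other calls were a pair of neighbouring regions upstream of Hspb1 that were in the striatum list only. The region at chr5:135878992-135881586, the nearer one with its middle at −7630 bp from the TSS, ran from 13.3 over 63.0 to 99.1 in MOR-LPS and from 18.0 over 30.6 to 55.2 in SAL-LPS libraries, a difference of 28.6 ± 7.47 (adjusted p = 0.0338). The region at chr5:135877334-135878851, the farther one with its middle at −9826 bp, ran from 13.3 over 44.3 to 86.3 in MOR-LPS and from 18.0 over 29.99 to 55.2 in SAL-LPS libraries, a difference of 26.7 ± 7.16 (adjusted p = 0.0345). Most of these ranks were the tied rank of a library without a peak. A peak was present in 8 of 15 MOR-LPS libraries at each region, against 2 (nearer) and 1 (farther) of 13 SAL-LPS libraries. With lists of equal length the differences were 18.8 (adjusted p = 0.132) for the nearer and −0.039 (adjusted p = 0.92) for the farther region, and neither was called. Hspb1 itself had a TSS peak in only 1 striatum library, MOR-LPS female 7-1.

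Oligodendrocyte markers moved with these 3 regions. Their share in striatum was 0% to 100% with a mean of 30.7% in MOR-LPS libraries, against 0% to 40% with a mean of 7.69% in SAL-LPS libraries. In striatum as a whole all 10 of those markers had a strong TSS peak in some library, from 6.67% of libraries for Olig2 and Ugt8a to 46.7% for Cnp. The 5 MOR-LPS libraries with a share of 40% or more had medians of 98.0 at the Mt1 promoter, 92.5 at the nearer and 80.8 at the farther Hspb1 region, against 89.1, 31.4 and 34.1 in the 10 other MOR-LPS libraries. SAL-SAL female 9-4, with a share of 90%, had 96.0, 78.7 and 70.0.

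With the oligodendrocyte share as a further term, an alternative chosen after seeing the data, the differences were 21.7, 10.4 and 15.7 and none was called (adjusted p = 0.766, 0.846 and 0.783). Without the libraries of 40% or more, also chosen after seeing the data, they were 23.7, 10.1 and 18.0, and again none was called (adjusted p = 0.764, 0.81 and 0.757). In both settings 0 of all striatum regions were called. The part of glial nuclei in the 3 calls was not tested apart from these fits.

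**Figure D4:**
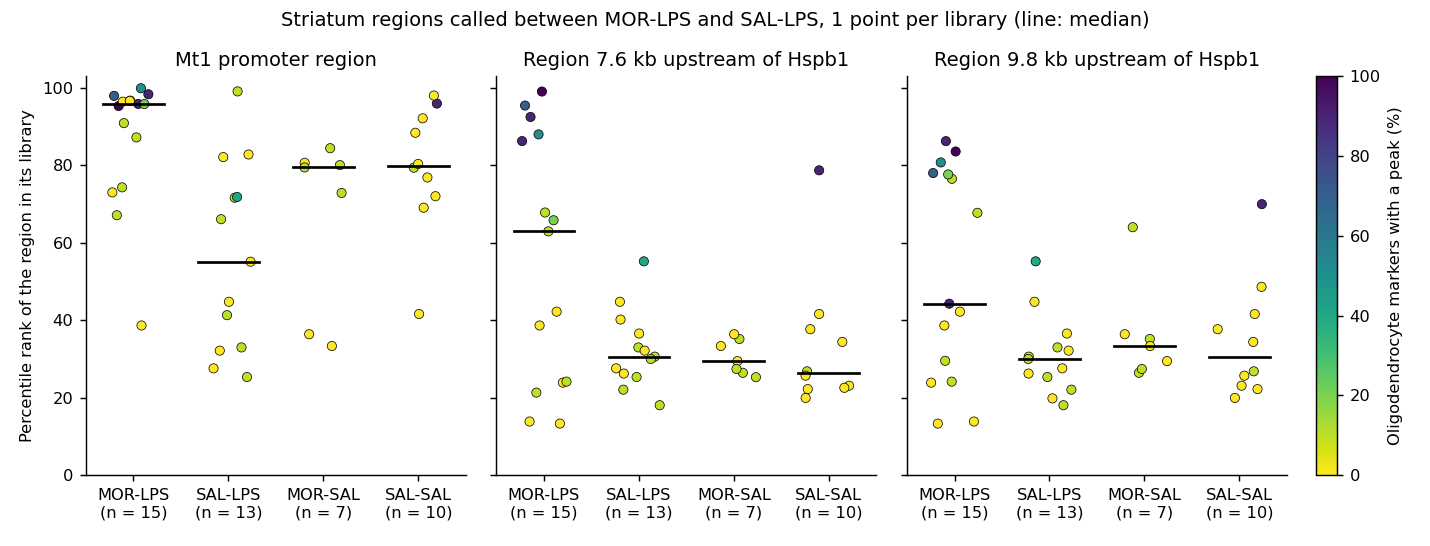
Percentile rank of the Mt1 promoter region and of the nearer and farther region upstream of Hspb1 in each striatum library, by group, with the median as a line and the share of oligodendrocyte markers with a strong TSS peak as colour. At the Mt1 promoter most MOR-LPS libraries lie above the SAL-LPS median of 55.1, and upstream of Hspb1 the dark points of high marker share lead the MOR-LPS group.

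The calls also depended on single libraries. Leaving out each of the 28 MOR-LPS and SAL-LPS striatum libraries in turn, the Mt1 promoter call was lost in 10 cases and those upstream of Hspb1 in 9 (nearer) and 11 (farther). The adjusted p ranged from 0.0138 to 0.0812, from 0.0102 to 0.0835 and from 0.0141 to 0.0857, and the differences from 27.7 to 34.8, from 25.5 to 32.6 and from 24.4 to 28.9. All 3 were lost without any of the MOR-LPS libraries 15-3, 16-0, 16-2, 7-1 and 14-4, which are the 5 of high marker share, or of the SAL-LPS libraries 10-0, 10-2, 3-1 and 4-4. Without SAL-LPS 9-3 the Mt1 and the farther Hspb1 calls were lost, and without SAL-LPS 2-0 the farther Hspb1 call.

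Regions beside the called ones had differences of like size that did not pass. The distal Mt1 region of the striatum (chr8:94185931-94190262) had a median of 67.8 in MOR-LPS, against 33.0 in SAL-LPS libraries, with a difference of 27.8 ± 9.07 (adjusted p = 0.0662). The Mt2 promoter region (chr8:94172580-94176112) had medians of 70.7 in MOR-LPS and 33.0 in SAL-LPS, with 24.9 ± 9.31 (adjusted p = 0.109). In hypothalamus, where 4.31% of all regions were called in MOR-LPS minus SAL-LPS and 0 of 10 member regions were, the distal Mt1 region (chr8:94186350-94190799) ran from 5.94 over 61.5 to 96.9 in MOR-LPS, against 5.14 over 19.1 to 92.8 in SAL-LPS libraries, a difference of 29.3 ± 9.97 (adjusted p = 0.0613). This region was called with a term for log10 list length (34.6, adjusted p = 0.031). In MOR-LPS minus MOR-SAL it was called with that term (adjusted p = 0.0401) and with lists of equal length (adjusted p = 0.0265). In striatum the distal Mt1 region was called without MOR-LPS 12-2 (adjusted p = 0.0494) or 13-0 (adjusted p = 0.0453), and the Mt2 and Hspa5 promoter regions without SAL-LPS 5-2 (adjusted p = 0.0387 and 0.039). The Mt1 and Mt2 regions lie within 1 cluster, with start sites 6418 bp apart, and are not independent of each other.

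The Mt3 promoter, 20057 bp from the Mt2 start site in the same cluster, was not called. Its striatum region had a median of 90.3 in MOR-LPS, against 83.8 in SAL-LPS libraries, with a difference of 5.29 ± 5.68 (adjusted p = 0.619). In hypothalamus the medians were 64.1 for MOR-LPS and 83.5 for SAL-LPS libraries, with −14.9 ± 9.01 (adjusted p = 0.331). Whether the Mt1 and Mt3 differences differ from each other was not tested.

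The regions downstream of Hspb1 also differed from the upstream pair in level. The nearer downstream region of the striatum was high in both groups, with medians of 91.6 in MOR-LPS and 93.1 in SAL-LPS libraries and a difference of 5.04 ± 5.79 (adjusted p = 0.646). The Hspa8 promoter region of the striatum was likewise high in all groups, with medians of 98.9 in MOR-LPS, 98.7 in MOR-SAL, 98.1 in SAL-LPS and 97.8 in SAL-SAL libraries. Of the Hspa8 regions inside or near Clmp none was called in any comparison.

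In the network lists 1 of 925 treatment tests at start sites was called, against 0.0581% over all genes: Slc39a10, a zinc importer, in striatum MOR-LPS minus SAL-LPS (36.5 ± 8.503, adjusted p = 0.0255). Of 1345 tests on 269 consensus regions of list genes, 6 were called (0.446%, against 0.551% over all regions), 3 as higher and 3 as lower, and they are named after their values were seen. The higher ones were the Slc39a10 promoter region in striatum MOR-LPS minus SAL-LPS (43.4 ± 9.48, adjusted p = 0.0265) and, in hypothalamus, a region 7329 bp from the J-domain gene Dnajb6 in MOR-LPS minus SAL-LPS (29.1) and one at Hspb6 and Proser3 in MOR-LPS minus MOR-SAL (37.0). The lower ones were a Slc30a10 region in striatum MOR-LPS minus MOR-SAL (−30.04) and, in the hypothalamus interaction, a Bag3 region (−54.9) and a Hspa9 region (−34.6). With the marker shares as further terms the Slc39a10 start site (26.2, adjusted p = 0.882) and region (32.2, adjusted p = 0.731) were not called, nor were they with lists of equal length (adjusted p = 0.0945 and 0.0861).

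The rare Hspa1b peaks were spread over treatments unevenly. They were present in 14 of 49 MOR-LPS, 2 of 39 MOR-SAL, 4 of 47 SAL-LPS and 5 of 37 SAL-SAL libraries, and in 21 of 92 female and 4 of 80 male libraries. The 25 libraries came from 16 animals. Female MOR-LPS 15-3 had the peak in all 4 of its libraries, with −log10 p of 12.4 in PFC, 9.37 in hippocampus, 6.10 in hypothalamus and 14.5 in striatum. Female MOR-LPS 15-1 had it in all 3 of its libraries, and 16-4, 7-1, 10-4 and 9-4 in 2 each. Libraries of 1 animal are not independent. All MOR-LPS peaks came from animals 15-1, 15-3, 16-0, 16-2, 16-4, 7-1 and 14-4, all female but 14-4. Animals 15-1 and 15-3 share the first number of their identifier, as do 16-0, 16-2 and 16-4. The labels do not state whether that number is a litter, so these animals may not be independent either. The pattern over all brain regions was noticed in the data and was not tested as a whole. Without the filter on rare peaks, limma called Hspa1b in striatum MOR-LPS minus SAL-LPS (14.3 ± 4.80, adjusted p = 0.0328).

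Hspa1b peaks went with oligodendrocyte markers too. The marker share had a median of 20% (mean 32.0%) in the 25 libraries with the peak, against 0% (mean 5.44%) in the 147 without it, and in striatum the medians were 90% with the peak and 0% without it. The peak was present in 8 of 12 libraries with a share of 40% or more and in 17 of the other 160. It was also present at shares of 0%, as in hypothalamus MOR-LPS male 14-4 with a −log10 p of 12.0. Hspa1a had a peak in 3 of those 12 libraries and in 8 of the other 160, with a mean marker share of 33.6% in the libraries with a peak and 7.64% in those without. Its rank had a correlation of 0.039 with that of Hspa1b over the 172 libraries.

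**Figure D5:**
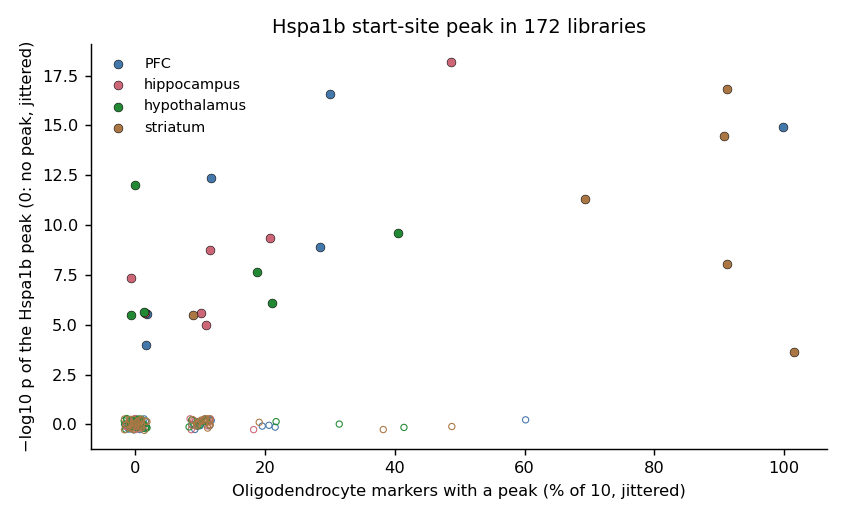
The −log10 p of the Hspa1b TSS peak in each of 172 libraries (0 without a peak) against the share of 10 oligodendrocyte markers with a strong TSS peak, coloured by brain region; points are jittered. Filled points lie at shares from 0% to 100%, and nearly all libraries without a peak (open) lie at 20% or below.

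Hspb1 peaks were too few to compare. They were found in 4 hypothalamus libraries and 1 striatum library, 4 of them MOR-LPS and 1 MOR-SAL, and in 0 of 42 PFC and 0 of 44 hippocampus libraries. The median −log10 p was 6.43.

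The genes whose TSS ranks followed those of the members most closely over the 172 libraries are given as a description. For Hsp90ab1 they were Pcbp1 (Pearson r = 0.651) and Rprd2 (0.599), for Hspa8 Ubb (0.586) and Zbtb38 (0.575), and for Hspa1b Folh1 (0.605) and Selenop (0.586). For Mt1 they were Bag6 (0.561) and Tti2 (0.559), for Mt3 Rab30 (0.520) and Mmp16 (0.506), for Dnajb1 Mapk1ip1 (0.489) and Ppp2r2d (0.482), and for Hspa5 Pura (0.488) and Atg10 (0.471). Mt2 followed Xaf1 (0.388) and Kirrel2 (0.367), Hspa1a followed Nadk2 (0.340) and Kif16b (0.323), and Hspb1 followed Lmnb1 and Slc11a2 (both 0.322). The libraries share brain region, kit and list length, all of which enter these values. Among the 7 tested members the 21 pairwise correlations ran from −0.012 to 0.393, so the members did not rank as 1 block.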

How the data were processed

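H3K27ac peaks were read from 174 lists, 1 per library, of which 172 were used: 1 PFC list of 4371 peaks was left out, and 2 hippocampus SAL-LPS lists with identical values were counted once. The 32 input libraries were not used. Per the study's methods, the authors trimmed reads (Trim Galore 0.6.7), aligned them to mm10 (Bowtie2 2.4.5), removed duplicates (SAMtools 1.15.1) and called peaks per library (MACS2 2.2.7.1). The deposited lists give each peak's −log10 p and −log10 q and its fold enrichment over the local background as the authors' caller wrote them. The 4 deposited consensus lists came from the authors' DiffBind step and hold positions only. Reads behind a peak are not in these columns, so no depth interval was given.

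Percentile ranks within each library were compared with limma 3.58.1 in R 4.3.3, per brain region with treatment group and sex, and over all libraries between brain regions, with Benjamini-Hochberg adjustment over all genes or regions tested. Intervals are 95% normal intervals from the fitted SE. Tables were made with Python 3.11.15 and pandas 2.3.3, and the fit was tested on simulated data. The named genes were the 10 members, up to 3 genes per network list (those called with the smallest adjusted p in any comparison) and, per member, the 2 genes with the most alike ranks. Members and lists were chosen with earlier results of these data known. The paper states that morphine or saline was allotted by dam and that MOR and SAL animals came from separate litters. Several animals of a litter were used as single samples. Litter and morphine therefore cannot be told apart in the MOR against SAL tests. The labels do not say how replicates of different animals were drawn from litters, so p-values measure only the spread between these libraries. Libraries of 1 animal enter the brain region pairs together, and with the animal as a block the estimated correlation was 0.0204. The PFC MOR-LPS female library 12-2 holds peaks named for another animal and was used under its label. Alternatives were lists of equal length, further terms for list length or markers, other scores, filters and windows, a block and leaving out libraries.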

Additional observations from a re-analysis of the deposited data

Results flagged for a closer look

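In 49 sets of 1 member in 1 group, with 7 to 10 libraries each, 18 TSS ranks lay far below the other libraries of their set. Chance flags about 5% of sets, but sets of different genes in the same libraries are not independent. Each flagged rank was of a gene without a peak in that library. PFC MOR-SAL male 13-1, with 11306 peaks, stood at 47.6 for Hsp90ab1, Hspa8, Dnajb1, Mt1 and Mt3. MOR-LPS male 6-0 stood at 45.6 for Hsp90ab1 and Hspa5 in hippocampus (16414 peaks) and at 42.4 for Hsp90ab1, Hspa5 and Dnajb1 in hypothalamus (28052 peaks). Hspa8 was at 37.8 in hippocampus MOR-LPS male 17-1 (61819 peaks) and at 36.9 in hypothalamus SAL-SAL male 5-3 (42358 peaks). In striatum, Hspa5 and Dnajb1 were at 39.5 in MOR-SAL male 17-0 (34014 peaks), Hspa5 was at 32.8 in SAL-SAL male 3-0 (65290 peaks), and Mt1 and Mt3 were at 44.0 in SAL-SAL female 10-3 (16732 peaks). Mt3 was at 35.3 in hypothalamus SAL-SAL female 4-1 (31636 peaks).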

How the results depend on the processing

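Calls of member regions numbered 3, against 1 with lists of equal length and 5 with a term for log10 list length. With lists of equal length none of the 3 striatum regions was called. The 1 call there was the distal Mt1 region of hypothalamus in MOR-LPS minus MOR-SAL. With the list length term that region was called in MOR-LPS minus SAL-LPS and in MOR-LPS minus MOR-SAL. The number of calls was 0 with marker terms, 0 with an oligodendrocyte term and 0 without the oligodendrocyte-rich libraries, and 0 to 5 when single libraries were left out. The oligodendrocyte term alone and the removal of rich libraries were chosen after seeing the data. The difference at the farther Hspb1 region was −0.039 with lists of equal length. That setting keeps 10811 peaks per striatum library for 60013 regions, so most regions share the tied low rank. A region of weak peaks can show little difference there, so nothing was concluded from that value, and the cause was not tested. At start sites, limma called 0 treatment tests of the members, 5 without the filter on rare peaks and 2 with normal scores. Among the 5 was Hspb1 in hippocampus SAL-LPS minus SAL-SAL (6.91, adjusted p = 0.0185). As 0 of 44 hippocampus libraries had a Hspb1 peak, that call compares only the tied low ranks of libraries and says nothing on Hspb1. Calls between brain regions numbered 13 and ranged from 9 (marker terms) to 17 (no filter), and no sex call was made under any alternative run. The shares of all genes called under these alternatives at start sites are not given here. Nothing was therefore read from these counts about the members against other genes. Counting only the 10000 strongest peaks left 589 of 1030 gene and library pairs with a TSS peak. With a replicate block the counts were 3 (regions), 0 (start sites) and 13 (brain regions), and the estimated correlation within blocks was at most 0.0336 in size. The labels do not state that these numbers pair libraries across treatments. List length limits what can be seen, since genes without a peak share 1 rank.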
